A study of Mus musculus with 8 samples.

Results

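The average effect of LPS on chromatin accessibility was measured over 8 ATAC-seq libraries of mouse bone marrow-derived macrophages, 4 with LPS against 4 without. All 8 libraries of the series entered, and the rule that formed the groups used the labels only. The cells came from 2 wild-type C57Bl/6 mice, and each mouse gave 1 library of each of 4 kinds. Without LPS these were unstimulated cells and cells given 1 µM fenoterol for 15 min. With LPS they were cells given 100 ng/mL LPS for 1 h and cells given the same fenoterol dose for 15 min and then the same LPS dose for 1 h. The model held fenoterol and mouse number as further terms, so each LPS library was in effect set against the library of the same mouse and the same fenoterol state. In the fenoterol pairs the cells with LPS also had a longer time since the agonist, and this time and LPS cannot be told apart. Of 74207 peaks in the deposited table, 66786 passed the filter on low values and were tested. The shallowest library, unstimulated mouse 1, held 1425275 reads in peaks, and the other libraries ranged from 3164244 to 4040220. The p-values rest on 2 animals.

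ATAC-seq uses the Tn5 transposase, which cuts and tags DNA where it is not covered by nucleosomes, so a higher value marks a more accessible region. LPS, a component of the outer membrane of Gram-negative bacteria, is sensed by Toll-like receptor 4. That receptor signals through NF-κB, MAP kinases with AP-1, and interferon regulatory factors, which bind promoters and enhancers of inflammatory genes. Fenoterol activates the β2 adrenergic receptor, whose signalling raises cyclic AMP. Regions are named here by their peak name and mm9 position. No mm9 annotation was used, so the macrophage label was not checked against marker genes. In bulk nuclei, more cells with an open region and a region more open in each cell cannot be told apart.

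LPS changed 23.7% of the tested regions, with more and larger gains than losses among those called. Accessibility rose at 8863 peaks (13.3% of those tested) and fell at 6979 (10.4%), together 15842 (23.7%). These were called by limma-trend at an adjusted p under 0.05. At an unadjusted p under 0.05 by the same test the counts were nearly equal, with 11837 higher and 11715 lower. The median risen peak went from 11.9 RPKM without LPS to 25.4 RPKM with it, and the median fallen peak from 32.1 to 21 RPKM, where the median over all tested peaks was 18.3 and 18.8 RPKM. Fold and log2 changes are of the scaled value + 4 RPKM, which understates the change of low peaks. The log2 change had a median of 0.80 over the risen peaks, with quartiles of 0.58 and 1.12. Over the fallen peaks the median was -0.52, with quartiles of -0.66 and -0.39, and over all tested peaks it was -0.03.

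The 2 directions differed most in their extremes. Rises of at least 2-fold numbered 2903 (32.8% of the risen peaks) and falls of at least 2-fold 159 (2.28% of the fallen). At 3-fold or more of RPKM + 4 there were 591 rises and 0 falls among called peaks. No tested peak was 3-fold lower by the fit. The 0 holds on this scale, which understates such changes, since means in plain RPKM went from 15.7 to 3.84 at peak63249. Rises are understated in the same way, with means from 2.61 to 34.4 RPKM at peak27246. At 4-fold or more there were 87 rises, and at 5-fold or more 12. Conversely, 62.9% of the fallen and 25.3% of the risen peaks changed by less than 1.5-fold. The peaks that rose at least 2-fold were mostly near the lower end of the measured range without LPS, with a median of 6.81 RPKM and quartiles of 5.10 and 10.1 RPKM. With LPS their median was 23.4 RPKM, above the 18.8 RPKM of all tested peaks. Of all risen peaks, 3516 (39.7%) had a mean without LPS under 9.62 RPKM, the level that the filter set for the mean of all 8 libraries. The 159 peaks that fell at least 2-fold went from a median of 25.1 to 9.81 RPKM. The fallen count was 4359 without the fenoterol + LPS library of mouse 1, 4199 without the fenoterol library of mouse 2 and 4607 with no mean trend in the variance. Thinning every library to the reads of the shallowest, a check chosen after seeing the data, gave 4874 rises and 2726 falls, the 4 libraries without fenoterol on their own gave 4388 and 2660, and the 4 with fenoterol 8993 and 5657.

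**Figure D1:**
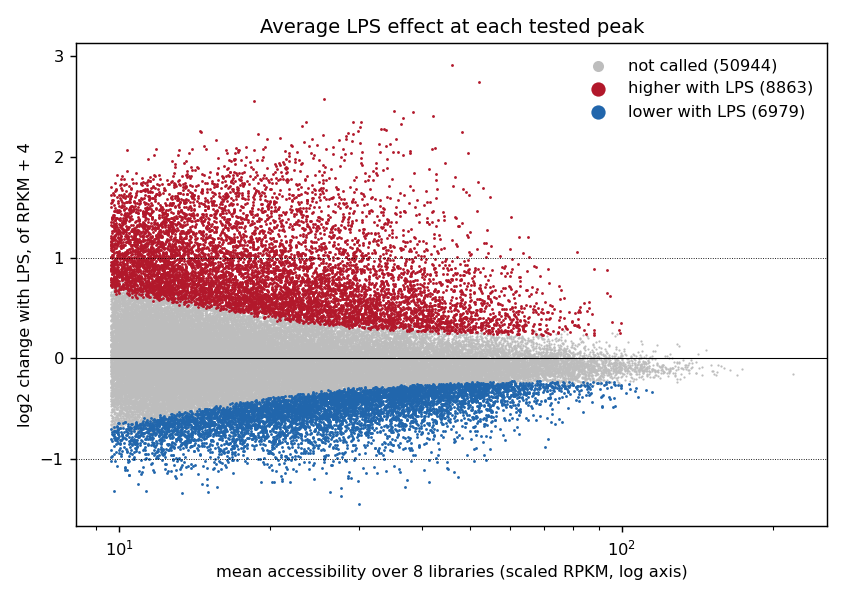
Log2 change with LPS, of RPKM + 4 (vertical axis), against the mean scaled RPKM over 8 libraries (horizontal log axis), 1 point per tested peak. The 8863 peaks called higher are red, the 6979 called lower blue and the rest grey, with dotted lines at a 2-fold change. Rises reach 2.91 and falls -1.45 on the log2 scale.

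The groups separated completely at many peaks. All 4 libraries with LPS lay above all 4 without at 8200 peaks (12.3% of those tested) and below them at 7535 (11.3%). Of the risen peaks 7189 (81.1%) were separated in this way, and of the fallen peaks 5282 (75.7%). A further 1011 peaks were separated upwards and 2253 downwards without passing the test. The LPS library exceeded its partner of the same mouse and fenoterol state in all 4 pairs at 18.8% of tested peaks and was below it in all 4 at 20.5%. Those shares were 94.5% among the risen and 93.4% among the fallen peaks, which were chosen on these values.

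By the share of all reads in peaks, the change was of like size in each library. The 8863 risen peaks held 7.04% and 7.62% of the reads of unstimulated mouse 1 and mouse 2, and 7.11% and 7.89% with fenoterol. They held 12.9% and 13.3% with LPS and 14.1% and 14.2% with fenoterol + LPS. The 6979 fallen peaks held 14.6% and 14.4% unstimulated and 14.4% and 14.1% with fenoterol, against 10.5% and 10.2% with LPS and 9.96% and 9.85% with both. No library with LPS overlapped one without. These shares describe the chosen peaks and test nothing. Since values are taken as relative to reads in peaks, a change common to all regions would not be seen.

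**Figure D2:**
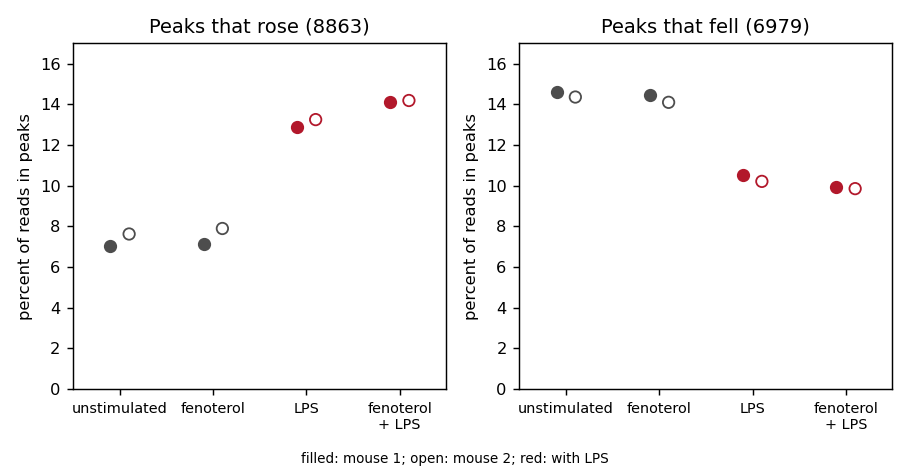
Percent of each library's reads in peaks (vertical axes, from 0) that lay in the 8863 risen peaks (left) and the 6979 fallen peaks (right), by group, with mouse 1 filled and mouse 2 open. The 4 libraries with LPS (red) sit between 12.9% and 14.2% on the left, against 7.04% to 7.89% without LPS.

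Most regions that changed at least 2-fold in 1 mouse changed in the same direction in the other. Peaks were picked for a change of at least 2-fold in both fenoterol states of 1 mouse. They were then read in the other mouse for the sign of the change, whatever its size. The values of that mouse entered the choice only through the scaling and the filter on the mean of all 8 libraries, apart from the authors' peak calling, whose use of the libraries is not known here. Mouse 1 gave 1968 such gains, of which 1891 (96.1%) were higher with LPS in both fenoterol states of mouse 2, where 32.4% of all tested peaks were. Mouse 2 gave 1887, of which 1840 (97.5%) were higher in both states of mouse 1, where 30.3% of all peaks were. The gains picked in mouse 1 had a median log2 change of 1.20 without and 1.28 with fenoterol in mouse 2. Those picked in mouse 2 had 1.19 and 1.55 in mouse 1. Losses were fewer. Of 140 picked in mouse 1, 115 (82.1%) were lower in both states of mouse 2, and of 129 picked in mouse 2, 112 (86.8%) were lower in both states of mouse 1. All tested peaks gave 35.2% and 35.9% for that direction. Losses picked in mouse 1 had a median log2 change of -0.64 without and -0.68 with fenoterol in mouse 2. Those picked in mouse 2 had -0.67 and -0.91 in mouse 1. With the filter taken from the choosing mouse alone and each mouse scaled on its own, a check chosen after seeing the data, the shares were 95.9% of 2015 and 97.2% of 1975 gains, and 77.7% of 139 and 85.9% of 135 losses. The gap between gains and losses in these shares was not tested.

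The 10 highest rises ran from 5.10- to 7.51-fold of RPKM + 4. None had an overlap between libraries with and without LPS, as at 81.1% of all risen peaks and 12.3% of tested peaks. These 10 were chosen on these values. Their means without LPS were 2.61 to 11.2 RPKM, under the median of all tested peaks, and their means with LPS were 34.4 to 93.2 RPKM. The highest was peak23363 at chr14:103457007-103457218. It stood at 10.6 and 5.69 RPKM in unstimulated mouse 1 and mouse 2, at 2.97 and 13.4 with fenoterol, at 80.5 and 95.0 with LPS and at 58.7 and 100.4 with both. All 4 libraries with LPS were far above the others, while the 4 without spread over several fold. Those 4 held few reads here, 3 and 5 unstimulated and 2 and 11 with fenoterol in mouse 1 and mouse 2. The log2 change was 2.91 (SE 0.19, adjusted p = 1.44e-08). Its neighbour peak23362, at chr14:103456180-103456905, went from 11.1 ± 4.86 to 93.2 ± 17.8 RPKM (SD over 4 libraries from 2 mice and 2 fenoterol states, as for every ± here, log2 change 2.74). In both peaks the lowest library with LPS was that of fenoterol + LPS in mouse 1.

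The third was peak10975 at chr11:54767546-54767901. It had 6.31 and 2.71 RPKM unstimulated, 4.42 and 4.34 with fenoterol, 39.8 and 41.2 with LPS and 42.0 and 63.6 with both, in mouse 1 and mouse 2. The other LPS values lay close together below that of the fenoterol + LPS library of mouse 2. Each library without LPS held 3 to 6 reads at this peak. The fourth, peak27246 at chr16:15984293-15984766, was the region closest to no signal without LPS. It had 1.58 and 2.54 RPKM unstimulated, where the mouse 1 value is the floor of 1 read, and 1.99 and 4.34 with fenoterol. With LPS it had 30.5 and 36.1 RPKM and with both 35.3 and 35.9 (log2 change 2.55, SE 0.20, adjusted p = 6.74e-08). A pair of adjacent peaks on chromosome 16 was also among the 10. The broad peak28954 at chr16:84718045-84719259 went from 9.31 ± 3.23 to 67.6 ± 13.5 RPKM, and peak28953 at chr16:84717504-84717797 from 9.15 ± 3.52 to 64.2 ± 15.2 RPKM.

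Peak30692 at chr17:35335631-35336577 had the widest spread without LPS of the 10, with 18.9 and 10.4 RPKM unstimulated and 4.64 and 10.9 with fenoterol. It had 82.2 and 85.3 RPKM with LPS and 56.6 and 68.4 with both (log2 change 2.41, adjusted p = 1.44e-08). Its fenoterol + LPS values were both under its LPS values, but the log2 change with LPS was 2.27 without and 2.55 with fenoterol. The interaction with fenoterol did not pass the test. The remaining 2 of the 10 besides peak15219, below, were peak5841 at chr10:18718762-18719465 and peak57717 at chr6:71223778-71224059. The first went from 7.20 ± 3.08 to 51.2 ± 3.52 RPKM, and the second from 7.51 ± 3.15 to 53.1 ± 3.02 RPKM. Their LPS libraries agreed more closely than those of the chromosome 14 peaks. Without LPS, peak57717 held 2 to 13 reads per library.

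The smallest p-values fell on regions whose 4 values per group were nearly equal. Peak15219, a peak of 1177 bp at chr12:56588293-56589469, had 6.98 and 8.17 RPKM unstimulated, 8.80 and 8.52 with fenoterol, 62.1 and 59.4 with LPS and 61.2 and 67.1 with both. Its log2 change was 2.46 (SE 0.12, adjusted p = 9.66e-10), with a gap between groups many times the spread within them. Peak46576 at chr3:135303053-135303641 had 8.88 to 10.5 RPKM without LPS and 56.3 to 71.6 RPKM with it. Peak39905 at chr2:90385397-90385935 had 11.1 to 15.6 RPKM without and 67.2 to 75.1 RPKM with LPS, a 4.23-fold change. All 3 shared the adjusted p of 9.66e-10.

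The 10 largest falls were smaller, from 2.43- to 2.72-fold of RPKM + 4. Again no library with LPS overlapped one without, as at 75.7% of all fallen peaks and 11.3% of tested peaks. These 10 were chosen on these values. The largest was peak17943, a peak of 1448 bp at chr13:24908220-24909667. It stood at 57.8 and 57.6 RPKM unstimulated, at 30.4 and 38.5 with fenoterol, at 16.6 and 12.5 with LPS and at 12.6 and 13.9 with both (log2 change -1.45, SE 0.14, adjusted p = 7.99e-07). Levels without LPS thus fell into a higher unstimulated pair and a lower fenoterol pair, both above all LPS values. Peak14583 at chr12:25784253-25784608 had 31.5 and 47.4 RPKM unstimulated, 41.5 and 44.9 with fenoterol, 20.7 and 13.0 with LPS and 9.96 and 11.8 with both. Here the LPS library of mouse 1 was the highest of the 4 with LPS.

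Some of the falls took a region close to no signal. Peak63249 at chr7:118370595-118370822 went from 15.7 ± 4.44 to 3.84 ± 1.64 RPKM, and peak41080 at chr2:128545086-128545432 from 17.9 ± 4.50 to 4.73 ± 1.51 RPKM. Others stayed accessible. Peak41317 at chr2:132536162-132536674 had 65.6 and 41.3 RPKM unstimulated and 63.1 and 47.2 with fenoterol, against 26.0 and 17.5 with LPS and 19.2 and 16.9 with both (adjusted p = 1.74e-07). Mouse 1 was the higher animal in both pairs without LPS. Of the 5 others, peak32393 at chr17:87730411-87730786 and peak51729 at chr4:154608422-154608788 were higher before LPS. They fell from 39.5 ± 7.22 to 13.2 ± 2.42 RPKM and from 41.0 ± 10.8 to 14.2 ± 2.33 RPKM. Peak13910 at chr11:118063902-118064297, peak27523 at chr16:23280527-23281023 and peak63334 at chr7:120430805-120431020 fell from 20.7 ± 5.16 to 5.89 ± 2.45 RPKM, from 23.1 ± 4.75 to 6.97 ± 2.99 RPKM and from 23.9 ± 8.50 to 7.45 ± 3.26 RPKM.

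The falls with the smallest p-values were at well-covered peaks. Peak9006 at chr10:117522153-117523084 had 62.5 and 57.3 RPKM unstimulated, 59.6 and 59.3 with fenoterol, 27.0 and 22.4 with LPS and 22.5 and 20.96 with both (log2 change -1.23, SE 0.09, adjusted p = 5.76e-08). Peak232 at chr1:16632007-16632741 had 59.8 to 76.6 RPKM without LPS and 23.9 to 30.8 RPKM with it (adjusted p = 5.74e-08). Peak8524 at chr10:98590309-98590960 had 50.1 to 56.2 RPKM without and 19.4 to 23.9 RPKM with LPS (adjusted p = 9.23e-08). In each of these 3 the level with LPS was still above the median of all tested peaks.

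**Figure D3:**
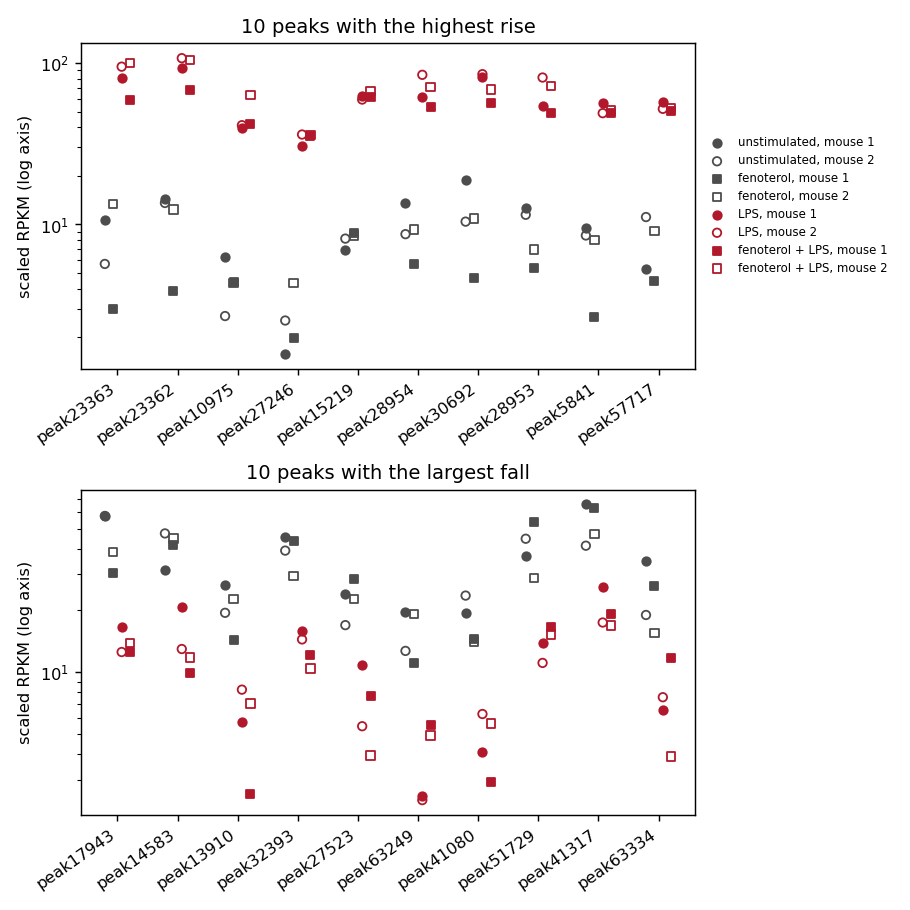
Scaled RPKM (vertical log axes) in each of 8 libraries for the 10 peaks with the highest rise (top) and the 10 with the largest fall (bottom), with LPS libraries in red, fenoterol as squares and mouse 2 as open symbols. Every red symbol lies above the grey ones of its peak in the top panel and below them in the bottom panel, and peak27246 reaches down to 1.58 RPKM.

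Some stretches of chromosome held many responding regions. In a fixed grid of 100 kb, 14808 windows held a tested peak, 34.7% of them at least 1 risen and 29.1% at least 1 fallen peak. The median window held 4 tested peaks, and the windows named below held 17 to 22. A window with more tested peaks has more that can be called, and the counts were not corrected for this. Windows with 5 or more risen peaks numbered 235, and 140 of these held no fallen peak. Windows with 5 or more fallen peaks numbered 121, and 69 of these held no risen peak.

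The window with the most risen peaks was chr14:103400001-103500000, with 13 risen and 0 fallen of 21 tested, where 13.3% of all tested peaks rose. It holds the 2 highest rises, and peak23364, the next peak after them, at chr14:103457564-103458676, rose from 60.7 ± 7.41 to 115 ± 9.58 RPKM. Before them on the chromosome peak23359, at chr14:103445994-103446425, rose from 21.6 ± 7.84 to 74.97 ± 5.21 RPKM (log2 change 1.68). Further away, peak23351 at chr14:103415102-103415502 rose from 24.3 ± 2.71 to 62.1 ± 4.36 RPKM and peak23353 at chr14:103424953-103425285 from 6.87 ± 1.82 to 24.4 ± 2.56 RPKM. No change was called at some of the tall peaks of the window. Peak23355 at chr14:103432466-103433223 had 87.6 ± 11.3 RPKM without and 85.4 ± 6.28 RPKM with LPS (adjusted p = 0.843), and peak23370 at chr14:103497977-103499207 had 99.1 ± 15.0 and 96.1 ± 3.71 RPKM (adjusted p = 0.817). The rises stood among regions that were accessible in both states.

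The second window, chr4:144800001-144900000, held 12 risen and 2 fallen of 22 tested peaks. Its largest change was at peak51352, chr4:144851213-144851686, from 15.9 ± 6.43 to 66.9 ± 7.40 RPKM (log2 change 1.88). Peak51358 at chr4:144873093-144873792 rose from 22.6 ± 5.37 to 76.9 ± 4.52 RPKM (adjusted p = 3.16e-08). In the same window peak51346, at chr4:144830562-144831309, had 81.5 ± 4.04 RPKM without and 77.2 ± 4.63 RPKM with LPS, and no change was called (adjusted p = 0.534). The fall at peak51347, 207 bp at chr4:144832800-144833006, was from 46.2 ± 9.47 to 30.9 ± 3.0 RPKM (adjusted p = 0.00314).

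The third, chr2:164200001-164300000, is 1 of 4 windows with 11 risen peaks and was taken by chromosome order. Peak42506 at chr2:164257333-164257598 rose from 8.90 ± 5.92 to 49.4 ± 4.76 RPKM (log2 change 2.15), and peak42507 at chr2:164258181-164258472 from 6.18 ± 2.29 to 37.4 ± 7.71 RPKM. A fall lay between the rises. Peak42509 at chr2:164266605-164267102 went from 66.3 ± 13.2 to 32.1 ± 7.22 RPKM (log2 change -0.96, adjusted p = 2.19e-06), while peak42510, the next tested peak, at chr2:164268186-164268956, rose from 38.3 ± 7.62 to 61.5 ± 5.38 RPKM. Opposite changes thus occurred at adjacent regions.

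The window with the most fallen peaks was chr8:119800001-119900000. Of its 17 tested peaks 11 fell and 0 rose, where 10.4% of all tested peaks fell. Peak67782 at chr8:119891320-119891798 fell from 46.8 ± 14.7 to 22.4 ± 3.83 RPKM (log2 change -0.91), and peak67778 at chr8:119864107-119864522 from 50.03 ± 3.65 to 29.2 ± 6.32 RPKM. Peak67771 at chr8:119811767-119812338 fell from 44.8 ± 11.6 to 25 ± 4.10 RPKM. At 6 peaks of the window no change was called, among them peak67777 at chr8:119856109-119856539, with 11.8 ± 3.91 and 13.8 ± 1.40 RPKM (adjusted p = 0.518).

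A window on chromosome 5, chr5:139800001-139900000, held 10 fallen and 0 risen of 18. One of them, peak55551 at chr5:139884386-139884895, went from 79.4 ± 5.08 to 45.6 ± 3.65 RPKM (adjusted p = 2.06e-06). Peak55549 at chr5:139879810-139880181 went from 40.9 ± 4.20 to 16.5 ± 1.86 RPKM (log2 change -1.13), the largest fall of the window. Chr10:80800001-80900000, 1 of 4 windows with 9 fallen peaks, had 2 risen ones among its 18. Peak7753 at chr10:80828500-80829324 fell from 31.2 ± 3.14 to 13.6 ± 1.5 RPKM, and peak7751 at chr10:80820969-80821353 rose from 17.3 ± 2.41 to 30.1 ± 2.52 RPKM (adjusted p = 0.000503).

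**Figure D4:**
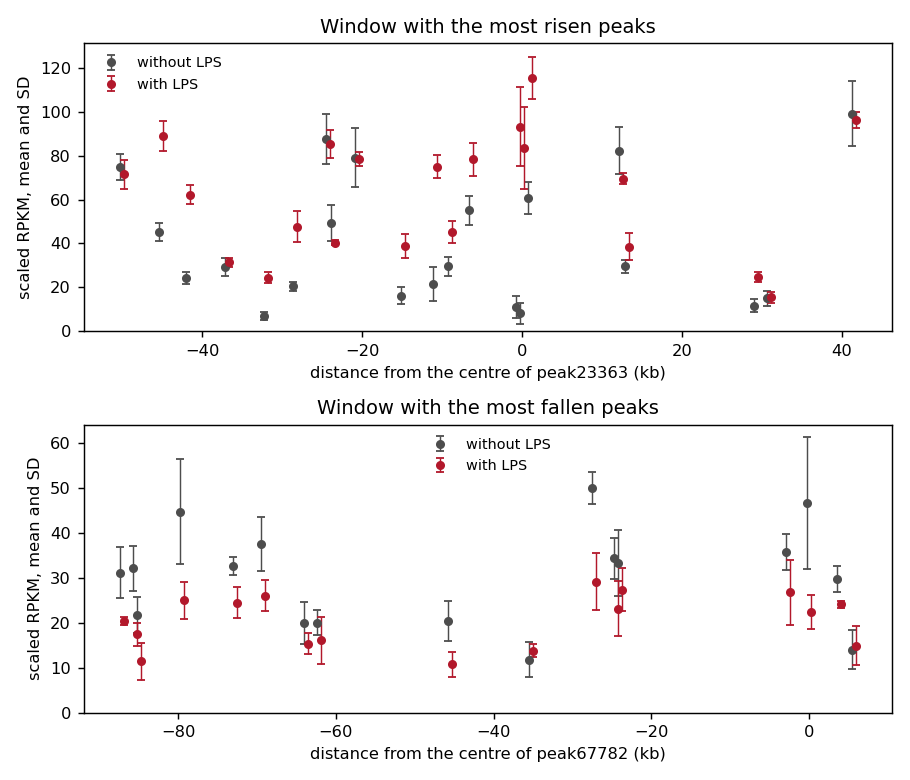
Mean scaled RPKM with SD over 4 libraries (vertical axes, from 0) without LPS (grey) and with LPS (red) for each tested peak of the window with the most risen peaks (top) and the window with the most fallen peaks (bottom), by distance in kb from the centre of peak23363 or peak67782. At the centre of the top panel the means go from 8.17 to 83.6 RPKM, while peaks near 80 RPKM in both states lie close by.

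Adjacent peaks tended to move the same way, and less so with distance. Among 7185 pairs of adjacent tested peaks under 1 kb apart, 40.2% of the neighbours of risen peaks had risen and 3.77% had fallen, where 17% and 13.2% of all neighbours at that distance had. Of the neighbours of fallen peaks at that distance, 36.6% had fallen and 4.85% had risen. At gaps of 5 to 20 kb the neighbour of a risen peak had risen in 22.6% of cases, against 12.4% of all neighbours. Beyond 100 kb the share was 9.30% against 9.29%, and for fallen peaks 4.0% against 5.08%. Pearson's r of the log2 change between neighbours was 0.421 under 1 kb, 0.166 at 5 to 20 kb and 0.0247 beyond 100 kb. These are descriptions over peaks of the same 8 libraries. A sequenced fragment can reach both peaks of a close pair, and the part of this was not tested. Over alternatives, the share of risen neighbours under 1 kb ran from 31.4% to 42.6% and that of fallen neighbours from 23.2% to 38.2%.

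**Figure D5:**
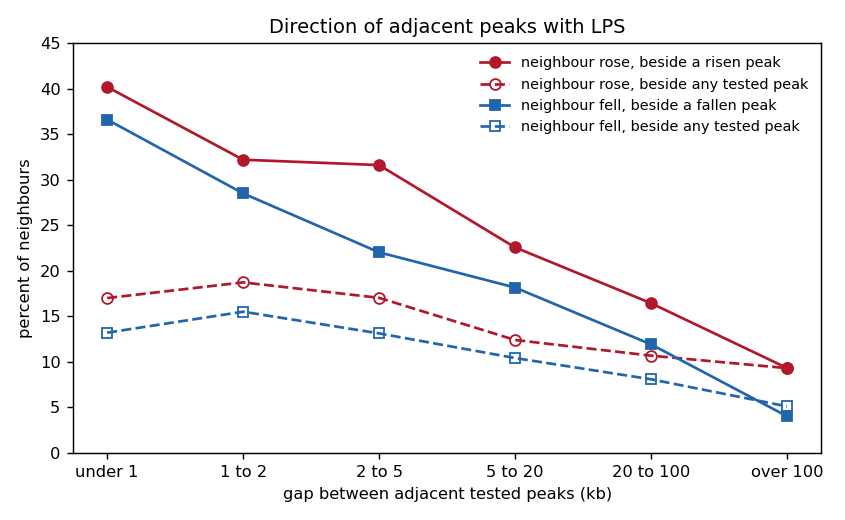
Percent of neighbours called in a direction (vertical axis, from 0) by the gap between adjacent tested peaks in kb (horizontal axis), beside peaks called in that direction (solid) and beside any tested peak (dashed), for rises in red and falls in blue. Under 1 kb the solid lines stand at 40.2% and 36.6% and the dashed ones at 17% and 13.2%, and beyond 100 kb they stand at 9.30% and 9.29% for rises and at 4.0% and 5.08% for falls.

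Where a peak stood in height and width went with the direction of its change. With peaks sorted by mean level over all 8 libraries into 10 classes of equal size, the share of peaks that rose was between 8.09% and 15.9% and had no steady trend, with the lowest share in the tallest class. The share that fell was 2.75% in the lowest class (9.62 to 11.1 RPKM) and 19.4% in the ninth (34.6 to 47.5 RPKM). The spread of the log2 change itself narrowed from an SD of 0.51 in the lowest class to 0.244 in the tallest. Taller peaks hold more reads, which makes smaller changes detectable, and the part of this in the shares was not tested. By width, peaks of 401 to 600 bp had the highest share of rises, 16.0%, and peaks over 1000 bp the lowest, 5.83%. Falls were called at 5.17% of peaks of 200 bp and at 13.4% of those of 601 to 1000 bp. The median width was 425 bp for risen, 473 bp for fallen and 421 bp for all tested peaks. Risen and fallen peaks each had a median of 7 other tested peaks within 50 kb, where all peaks had 6.

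Every autosome and chromosome X held peaks of both directions. Rises made up 10.5% of tested peaks on chromosome X, the lowest share of these, and 15.0% on chromosomes 6 and 16, the highest, and on chromosome 7 falls (12.2%) were more frequent than rises (11.7%). On chromosome Y, 32 peaks were tested and 0 were called, where 23.7% of all tested peaks were.

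LPS was the largest of the terms in the model. Over all tested peaks the SD of the log2 change was 0.45 for LPS, 0.207 for fenoterol and 0.196 for the mouse, with the same median standard error of 0.166 for each. By limma-trend the fenoterol term called 0 peaks (0%), with 5325 at an unadjusted p under 0.05 and a smallest adjusted p of 0.0967. The mouse term called 0 (0%), with 5008 at an unadjusted p under 0.05 and a smallest adjusted p of 0.123. Voom on recovered reads, which changes both the input and the weighting, called 298 for fenoterol and 7 for the mouse. At the peaks that rose with LPS the fenoterol term had a median log2 of 0.0605 and at those that fell -0.0658, beside -0.00953 over all tested peaks. The mouse term, which is no treatment, had nearly the same medians, 0.0566 and -0.0585, beside -0.000945 over all tested peaks.

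Of the 66786 tested peaks, 4608 had an unadjusted p under 0.05 for the interaction, where a share of 0.05 would with no effect. An LPS effect that differed with fenoterol was called at 1 peak (0.0015% of those tested). This was peak65389, 207 bp at chr8:28373038-28373244. It had 25.4 and 24.5 RPKM unstimulated, 13.7 and 8.73 with fenoterol, 41.2 and 28.9 with LPS and 68.7 and 51.4 with both. The values without LPS rest on few reads, 7 and 21 unstimulated and 9 and 7 with fenoterol in mouse 1 and mouse 2. The values with fenoterol alone were the lowest and those with both the highest, and the difference of the LPS effects was 1.66 on the log2 scale (SE 0.23, adjusted p = 0.0345). The call was kept in 6 of 20 alternatives, and the adjusted p ran from 0.00679 to 0.935. The difference itself ran from 0.63 with all libraries thinned to the shallowest (SE 0.54) to 1.97 by voom. The interaction called 17 peaks by voom. Its count was highest when the unstimulated library of mouse 2 was left out. Only the shallow unstimulated library of mouse 1 was then left in that group, so the count is not given. A low count by the interaction test does not show that the LPS effect is the same with and without fenoterol.

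The other 7 peaks named for the interaction, the 3 next in the positive and the 4 first in the negative direction by p, did not pass (adjusted p = 0.194 to 0.257). Among them peak54196 at chr5:106147045-106147777 fell on average (log2 change -0.53, adjusted p = 0.0261) with overlapping groups. It had 81.0 and 70.5 RPKM with fenoterol alone and 28.5 to 36.1 RPKM in the other 6 libraries. At peak33855, chr18:56893474-56893894, the values were 14.2 and 21.2 RPKM unstimulated, 58.3 and 48.3 with fenoterol and 39.1 to 43.9 in the 4 with LPS, and the average LPS effect was not called (adjusted p = 0.194). At peak5208, chr1:195231665-195231864, the values with both treatments, 25.4 and 37.8 RPKM, were above the 7.88 to 19.3 RPKM of the other 6.

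Peaks on either side of the threshold had changes of overlapping size. Just inside were peak788 at chr1:46878095-46878488 (log2 change -0.66), peak31164 at chr17:49595654-49595984 (0.59) and peak58075 at chr6:87484875-87485540 (-0.32). Just outside were peak1718 at chr1:84359334-84360427 (0.29), peak22960 at chr14:76131132-76131565 (0.58) and peak55796 at chr5:145044199-145044976 (-0.27). Among these 6 the groups of libraries were separated at peak58075 only.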

How the data were processed

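The authors deposited 1 RPKM value per peak and library, with mm9 coordinates. The submitters' processing notes name cutadapt, Bowtie2, MACS2 and HOMER. The sources used here give no tool versions and do not say whether duplicates were removed, whether reads were shifted for the Tn5 cut site, or whether peaks were called per library. Every value times peak length (end minus start) lay within 0.01 read of a whole multiple of 1 step per library (100% of values). RPKM is thus a whole number of reads over peak length and a library total. That total is taken here as the reads in peaks, and a comparison with the summed reads is not given. Peaks without reads appear to hold the value of 1 read.

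Values were divided by median-ratio size factors (0.9401 to 1.037), and log2(value + 4 RPKM) was used. Left out were the 10% of peaks with the lowest mean over all 8 libraries, under 9.62 RPKM. Limma 3.58.1 in R 4.3.3 (limma-trend, Benjamini-Hochberg adjustment over all 66786 peaks, threshold 0.05) was fitted with LPS, fenoterol and mouse as additive terms. It had 4 residual degrees of freedom and a prior worth 14.8. The interaction fit added the product of LPS and fenoterol. The tests were tried on simulated data first.

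The block is paired by animal, per the labels. Differences between the mice correlated at 0.0223 to 0.0713 across groups. A chi-square test of reads, divided by its degrees of freedom, gave 0.89 for the LPS pair of mice, 0.938 for fenoterol + LPS, 1.09 for fenoterol and 1.21 for unstimulated cells, and 0.97 for the closest libraries of different groups. The LPS and fenoterol + LPS pairs thus differed by no more than sampling noise, and no columns were identical. The closest libraries of different groups, at 0.97, were less close than these pairs but also differed by no more than sampling noise. Since the labels give the pairs to different mice, all 8 were kept as samples.

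Named peaks were called and moved the same way in all 4 pairs of a mouse and a fenoterol state. They are the 10 with the highest and the 10 with the lowest log2 change and the 3 with the smallest p in each direction. Added to these are the peaks of the 3 windows of 100 kb with the most risen and the most fallen peaks, the 4 peaks with the smallest interaction p in each direction, and the 3 nearest to each side of the threshold. These rules and the comparison itself were chosen with earlier results of these data known. Alternatives covered scaling, pseudocount, filter, variance model, terms, libraries and voom on recovered reads. EdgeR was not used. No mm9 genome or annotation was used here, so peaks carry no gene names and no sequence.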

Additional observations from a re-analysis of the deposited data

Results flagged for a closer look

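Dixon's gap was applied to 58 sets of 4 libraries, with or without LPS, at the peaks with the largest changes and smallest p-values and at the library totals, and 3 exceeded the critical value of 0.829. Chance marks about 1 set in 20. At peak10975 the fenoterol + LPS library of mouse 2 had 63.6 RPKM against 39.8 to 42.0 RPKM in the other 3 with LPS. At peak27246 the LPS library of mouse 1 had 30.5 RPKM against 35.3 to 36.1 RPKM. At peak46576 the fenoterol library of mouse 2 had 10.5 RPKM against 8.88 to 9.07 RPKM in the other 3 without LPS. Each of these calls was kept without the library in question.

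At peak65389 the LPS effect was larger with fenoterol than without, with a difference of 1.66 on the log2 scale (limma-trend interaction, adjusted p = 0.0345). The libraries with fenoterol alone held 9 and 7 reads at this peak.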

How the results depend on the processing

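The shallow unstimulated library of mouse 1 limits single values of low peaks, and 5036 of its peaks stand at 1 read. With no replicate block 8663 peaks rose and 6616 fell, and in no alternative was a peak called in the direction opposite to its main call. With no mean trend 4607 fell. The 4 libraries without fenoterol gave 4388 rises and 2660 falls, and the 4 with fenoterol 8993 and 5657. Thinning all libraries to the shallowest, chosen after seeing the data, gave 4874 and 2726, and 53.4% of the main rises and 34.9% of the main falls were kept. Leaving out 1 library gave 6365 to 9440 rises and 4199 to 7053 falls. Quantile normalization gave 8618 and 8335.

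The interaction called 0 peaks on the values as deposited, by cyclic loess, with a pseudocount of 0.8 RPKM, with no mean trend, with no replicate block and with thinning. It called 17 by voom with the block, 4 by voom without it (chosen after seeing the data), and 0 to 288 without 1 library. Fenoterol called 1 on the values as deposited and by cyclic loess, 5 by quantile normalization, 298 by voom with the block, 204 without it, and 0 to 1 without 1 library. The mouse term called 7 by voom and 0 to 2 without 1 library. The causes were not tested. The sign of the LPS effect changed at 2 of the peaks named for the interaction. Peak54196, called lower in the main fit (log2 change -0.527), had 0.0443 in the libraries without fenoterol and was not called there. Peak33855, not called in the main fit (0.359), had -0.317 in those with fenoterol and was called lower there (limma-trend, adjusted p = 0.0459).

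The 25 peaks named for size or smallest p kept their calls in all 598 values computed over 24 alternatives. They were picked as the most extreme of these same data, so this says little about the other calls. Over all main calls the lowest shares kept were 47.0% of rises and 32.9% of falls, in the 4 libraries without fenoterol. Of 2756 values for peaks of the 6 windows, 181 lost and 26 gained a call. The share of gains picked in 1 mouse that were repeated in the other ran from 92.2% to 100% over 4 alternatives of scaling and pseudocount. For losses picked in mouse 2 it ran from 72.0% to 100% over 4. Losses picked in mouse 1 gave 79.6% to 86.4% over 3, as 1 alternative picked no such loss. The numbers of peaks behind these shares are not given here, so a share of 100% can rest on few peaks. The planned edgeR test was not run because the deposited unit is RPKM.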

Other observations

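Among the 10 peaks with the highest rise, the fenoterol library of mouse 1 was the lowest of the 4 without LPS at 7, and the fenoterol + LPS library of mouse 1 the lowest of the 4 with LPS at 7. Over all 66786 tested peaks these libraries were the lowest of their 4 at 16564 and 16886. Over the 8863 risen peaks the fenoterol + LPS library of mouse 1 was instead the highest of its 4 at 3029 and the lowest at 1697. The fenoterol library of mouse 1 was the lowest of its 4 at 2917 of them and the highest at 1428, the same way as at the 10 highest rises. No test was made of this.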
